A study of Rattus norvegicus with 6 samples.

Results

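The 1156 accessible regions described here were called as ATAC-seq peaks in untreated and Ex-4-treated INS-1 cells of both genotypes and in neither library from cells treated with forskolin. They were chosen by these calls alone. They make up 0.524% of the 220487 merged peaks off the mitochondrial chromosome and 1.25% of the 92819 peaks called in the same 4 untreated and Ex-4 libraries. The other peaks of that background comprise 86576 called in all 6 libraries, 947 absent from the WT forskolin list only and 4140 absent from the Med14 S983A forskolin list only.

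INS-1 is a rat insulinoma line used as a pancreatic beta cell model. WT cells and Med14 S983A cells, a Crispr knock-in in which alanine replaces a serine of the Mediator subunit Med14 (mutant cells), were placed in serum-free medium. They then received no agent (CON), 10 nM exendin-4 (Ex-4) or 10 µM forskolin (FSK), the agents for 1 h. Each of the 6 conditions had 1 library. Which independently generated mutant line supplied the cells, and whether cultures were pooled, is not stated. Clone and genotype therefore cannot be told apart, no replicate error exists, and every difference below describes these libraries.

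ATAC-seq reads where the transposase Tn5 can reach DNA, so a peak marks chromatin that is open, often at promoters and enhancers. Ex-4 activates the GLP-1 receptor, which raises cAMP through adenylate cyclase, whereas FSK activates adenylate cyclase directly. cAMP activates PKA, which phosphorylates CREB and, in the study, Med14, a scaffold of the Mediator complex that links enhancer-bound factors to RNA polymerase II.

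The values are FPKM over the merged peak, that is, reads per kilobase of peak and per 1000000 reads inside called peaks of that library. A value of 0 means that macs2 called no peak there in that library, and it does not count the reads in that interval. All 1156 regions were listed at 0 in WT FSK. In Med14 S983A FSK, 2 of them had a value above 0, of at most 0.136 FPKM. These zeros follow from the choice of regions, so no fold change with FSK can be given, and the word "lost" would say more than the values show. Reads inside peaks, recovered from the steps between low values, summed to between 134300000, in Med14 S983A CON, and 251100000, in WT FSK. WT FSK also had the most called peaks, 169448, against 131253 in WT CON. The mutant FSK library held 163000000 reads and 144166 peaks, against 119021 peaks in the mutant CON library. Both FSK libraries thus had more reads in peaks, and more peaks, than the CON library of their genotype. These sums cover called peaks only and rise with the number called, so they do not give the sequencing depth. The FPKM of each library were scaled to its sum, so FSK minus CON differences also depend on these sums.

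Most of the regions were weakly accessible before treatment. The median level was 2.61 FPKM in WT CON, 2.24 in WT Ex-4, and 2.52 and 2.25 in mutant CON and Ex-4. Peaks called in all 6 libraries had medians of 8.77, 8.70, 8.03 and 8.05 FPKM in the same order. The regions were also narrow, with a median merged length of 257 bp (quartiles 196 and 348 bp) against 584 bp for the peaks called in all 6 libraries. A merged length joins calls of 4 lists for the regions and of 6 for the other peaks. The choice of regions thus bears on length, and its part in this difference was not tested. The reads behind the median region numbered 103 (WT CON), 93 (WT Ex-4), 87 (mutant CON) and 84 (mutant Ex-4), for a counting error of 9.85% to 10.9%. The mean of the 4 CON and Ex-4 values ranged from 0.276 to 36.8 FPKM, so the set also holds strong peaks.

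**Figure D1:**
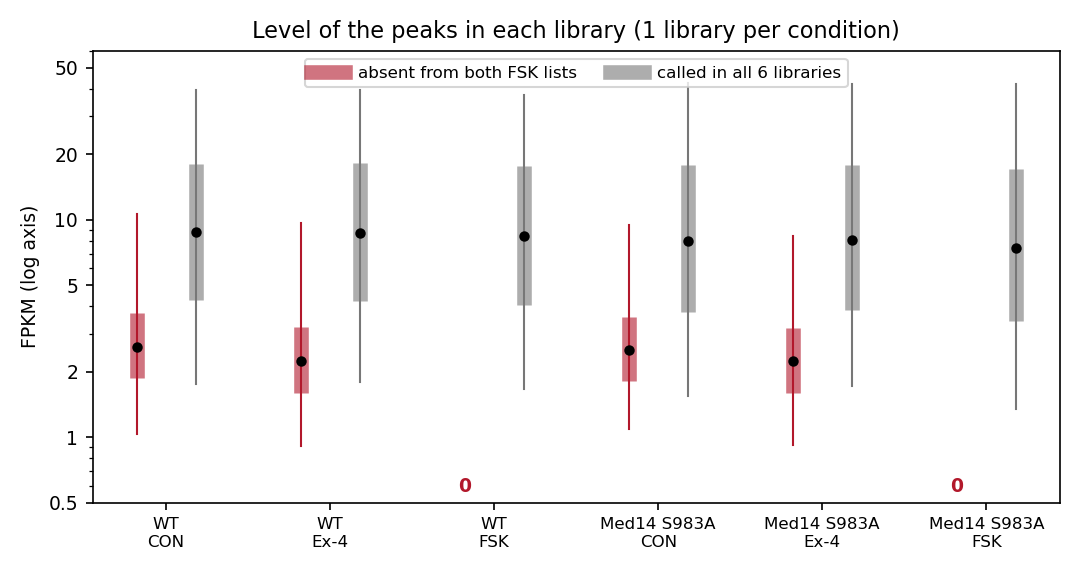
FPKM (log axis) in each library for the 1156 peaks absent from both FSK lists (red) and the 86576 peaks called in all 6 libraries (gray), with the median as a point, the quartiles as a thick bar and the 5th to 95th percentiles as a line. The red medians lie between 2.24 and 2.61 FPKM in the 4 CON and Ex-4 libraries and at 0 in both FSK libraries, which the choice of peaks fixes, and the gray medians lie between 7.42 and 8.77 FPKM.

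The share of background peaks absent from both FSK lists was lower the stronger the peak. It was 7.76% of the 245 peaks with a mean of up to 1 FPKM over the 4 libraries and 7.35% (6.64% to 8.12%, Wilson 95% interval) of those above 1 and up to 2 FPKM. It was 4.42% between 2 and 3 FPKM, 1.71% between 3 and 4 FPKM and 0.576% between 4 and 6 FPKM. Above 10 FPKM it was 0.132% (0.101% to 0.174%), or 51 of 38551 peaks. Peaks of up to 3 FPKM therefore supplied most of the regions, with 426 between 2 and 3 FPKM and 353 between 1 and 2 FPKM. These intervals cover counting error only and take each peak as independent.

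Merged length, on which the choice of regions bears, showed the same gradient. Of peaks of up to 150 bp, 7.58% (6.21% to 9.21%) were absent from both FSK lists, against 4.59% from 200 to 300 bp, 1.47% from 300 to 500 bp and 0.0242% over 800 bp. The gradient with length held among strong peaks. Above 10 FPKM, 36 of 1236 peaks of up to 200 bp were absent from both lists (2.91%, 2.11% to 4.01%), against 15 of 37315 longer ones (0.0402%, 0.0244% to 0.0663%). The 51 strong regions had a median length of 173 bp, against 755 bp for peaks of that level called in all 6 libraries.

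The WT FSK list lacked 2103 background peaks (2.27%) and the Med14 S983A FSK list lacked 5296 (5.71%). The regions shared by both made up 55.0% of the former and 21.8% of the latter. The peaks missing from 1 FSK list only were weak as well, with a median mean level of 2.53 FPKM for the WT list and 3.04 FPKM for the Med14 S983A list. In the genotype whose FSK list lacked the peak, their CON medians were lower than in the other genotype. The 947 peaks absent from WT FSK only had a CON median of 1.98 FPKM in WT and 3.19 in Med14 S983A, and the 4140 absent from Med14 S983A FSK only had 4.14 in WT and 2.03 in Med14 S983A. The regions absent from both had similar CON medians in the genotypes, at 2.61 and 2.52 FPKM.

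**Figure D2:**
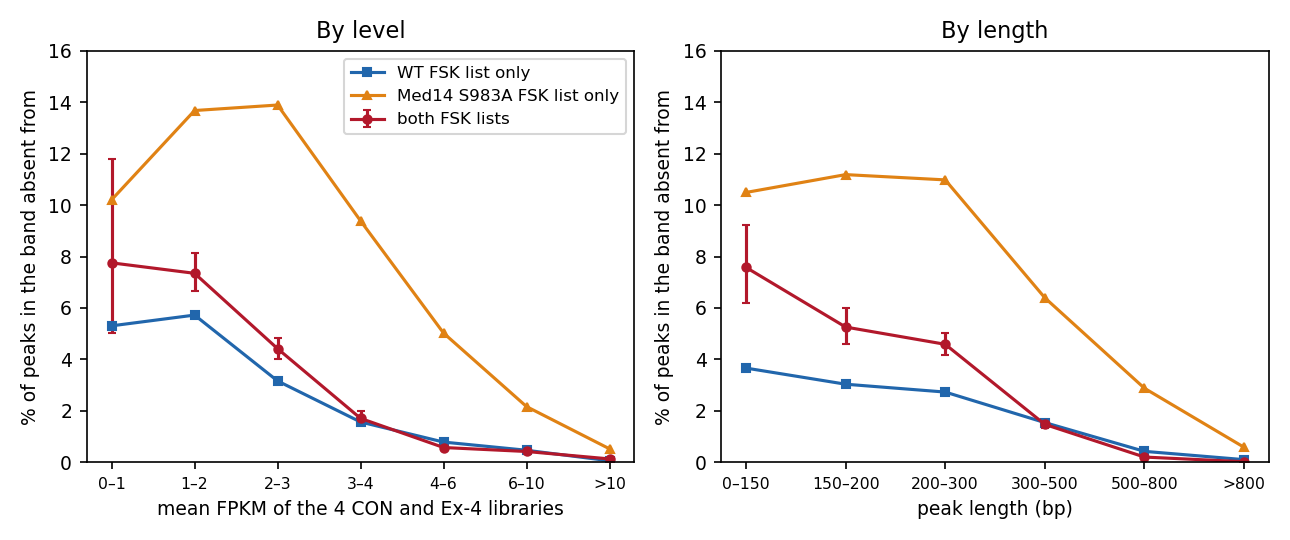
Percent of the background peaks in each band that were absent from both FSK lists (red, with Wilson 95% intervals), from the WT FSK list only (blue) or from the Med14 S983A FSK list only (orange), by mean FPKM of the 4 CON and Ex-4 libraries (left) and by peak length in bp (right). The red share is 7.76% in the lowest band of level and 0.132% above 10 FPKM, and 7.58% in the shortest band and 0.0242% over 800 bp.

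Their CON levels were, for the most part, within the range at which peaks were called after FSK. The lowest 10% of called peaks lay under 1.59 FPKM in WT FSK and 1.58 FPKM in Med14 S983A FSK. Of the 1156 regions, 964 (83.4%) had a WT CON value at or above the former and 954 (82.5%) a Med14 S983A CON value at or above the latter. The share depended on length. For regions of up to 150 bp, 91 of 91 exceeded the 10th percentile of called FSK peaks of that length in both genotypes, whereas 16 of 66 regions over 500 bp did so in WT and 30 of 66 in Med14 S983A. The short regions were thus as strong in CON as short peaks called after FSK, with medians of 3.76 against 2.63 FPKM in WT and 3.89 against 2.89 FPKM in Med14 S983A. The long ones were weak for their length, with medians of 1.74 against 10.4 FPKM and 1.69 against 9.60 FPKM. The choice of regions bears on these comparisons. Every region had to be called in the 4 CON and Ex-4 libraries, whereas a peak called after FSK could stand in 1 list only. Of the 169448 peaks called in WT FSK, 86576 were called in all 6 libraries. The CON and FSK values were also scaled to different sums of reads in peaks. How far level bears on the absent calls was not tested.

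**Figure D3:**
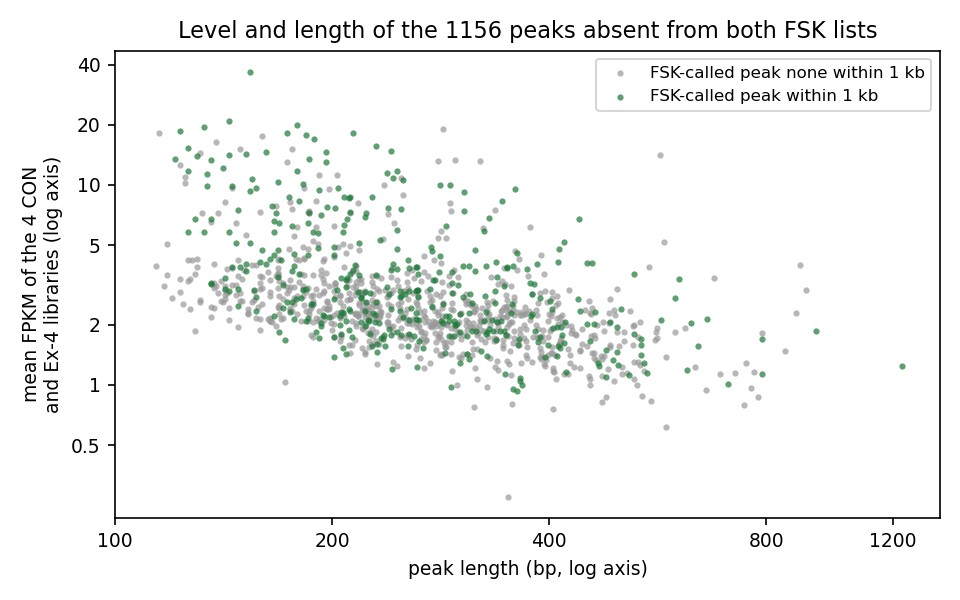
Mean FPKM of the 4 CON and Ex-4 libraries against merged peak length in bp for the 1156 regions (both axes log), with regions that had a peak called in an FSK library within 1 kb in green and the others in gray. Most points lie between 1 and 4 FPKM, and the points above 10 FPKM are mainly short and green.

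The strongest regions are shown because their levels were far above those at which most peaks were called after FSK. The 154 bp region at chr7:12404506-12404660 (rn6) measured 37.2 FPKM in WT CON, 33.8 in WT Ex-4, and 40.4 and 35.6 in mutant CON and Ex-4, from 807 to 868 reads, and 0 in both FSK libraries. The nearest peak called in an FSK library started 97 bp after it and was called in all 6 libraries. That neighbor measured 72.6 FPKM in WT CON and 91.0 in WT FSK, and in the mutant 79.5 in CON and 104.4 in FSK. The neighbor was thus higher in FSK in both genotypes, beside a region that neither FSK list held.

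The region at chr9:105163949-105164093 measured 16.3 FPKM in WT CON, 16.5 in WT Ex-4, and 25.2 and 25.3 in mutant CON and Ex-4. At 351 bp from it lay a peak called in the 2 FSK libraries only, at 11.3 FPKM in WT FSK and 14.7 FPKM in Med14 S983A FSK. At this place, a peak of the CON and Ex-4 lists and a peak of the FSK lists stood side by side. The region at chr19:54112266-54112389 measured 18.03, 19.1, 19.6 and 17.3 FPKM in WT CON, WT Ex-4, Med14 S983A CON and Med14 S983A Ex-4. A peak 313 bp from it was called in all 6 libraries and measured 10.5 FPKM in WT CON against 20.3 in WT FSK, and in the mutant 13.3 in CON against 23.3 in FSK.

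The neighbors of the other strong regions did not all measure higher in FSK. The peak 813 bp before the region at chr17:37618818-37618951 measured 18.1 FPKM in WT CON and 14.5 in WT FSK, and 18.6 and 15.3 FPKM in Med14 S983A. The region itself measured 19.2 FPKM in WT CON, 17.6 in WT Ex-4, and 20.9 and 20.3 in mutant CON and Ex-4. Next to the region at chr3:82938579-82938758, with 17.9, 19.2, 20.05 and 22.9 FPKM in that order, the neighbor was nearly level, at 29.7 FPKM in WT CON and 29.8 in WT FSK. The other 3 of the 8 strongest regions, at chr6:25615101-25615386, chr2:187861290-187861504 and chr9:30344206-30344379, ranged from 15.03 to 24.0 FPKM over the 4 libraries. On chromosome 6 the neighbor measured 10.5 FPKM in WT CON and 16.2 in WT FSK, and 12.1 and 17.5 FPKM in the mutant. On chromosome 2 it was listed at 0 in WT CON and WT FSK, and measured 12.8 and 13.7 FPKM in the mutant. On chromosome 9 it measured 33.8 and 33.3 FPKM in WT, and 38.2 and 35.0 FPKM in the mutant. The 8 regions were between 123 and 285 bp long.

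Over the whole set, a peak called in an FSK library lay within 1 kb of 371 regions (32.1%, 29.5% to 34.8%), against 34.0% of the peaks called in all 6 libraries. The regions were thus no closer to FSK-called peaks than other peaks were, with a median gap of 2778.5 bp against 2188 bp. The strong ones differed from the weak ones in this respect. Of regions above 10 FPKM, 64.7% had such a neighbor within 1 kb, and of those between 4 and 10 FPKM 54.4%, against 26.9% in both the band up to 2 FPKM and the band from 2 to 4 FPKM. Peaks above 10 FPKM called in all 6 libraries had one in 37.5% of cases, and in 48.4% of cases where they were also at most 200 bp long, against 69.4% of the 36 regions of that level and length. Peaks called in both FSK libraries only lay within 1 kb of 33 regions (2.85%, 2.04% to 3.98%), against 2.87% of peaks called in all 6 libraries, which is no more than the background.

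The nearest peak called in all 6 libraries lay within 10 kb of 713 regions. The FSK minus CON difference of these neighbors, on the log2(FPKM + 0.5) scale, had a median of -0.15 in WT (-0.19 to -0.10, 95% order-statistic interval over peaks) and -0.21 in Med14 S983A (-0.26 to -0.16). For neighbors of the peaks called in all 6 libraries, the medians were -0.12 and -0.099. The excess was small in Med14 S983A and within the interval in WT. Within 2 kb the median was -0.060 in WT, against -0.12 for neighbors of the peaks called in all 6 libraries, and -0.12 in Med14 S983A, against -0.089. Within 50 kb it was -0.20 in WT, against -0.13, and -0.25 in Med14 S983A, against -0.12. The regions' neighbors thus had lower medians than those of other peaks at all 3 distances in Med14 S983A. In WT this held at 10 and 50 kb but not at 2 kb. The median of other peaks' neighbors lay within the regions' interval at 2 and 10 kb in WT and at 2 kb in Med14 S983A. In WT, no distance gave the regions a higher share of neighbors lower in FSK than in CON. It was 60.3% against 63.7% within 10 kb and 64.3% against 64.5% within 50 kb. In Med14 S983A this share was higher within 10 kb (64.8% against 61.5%) and 50 kb (68.7% against 63.1%), but not within 2 kb. Neighbors within 10 kb showed almost no Ex-4 minus CON difference, with medians of -0.0094 in WT and -0.0059 in Med14 S983A.

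Ex-4 is the stimulus that acts through the GLP-1 receptor on the same cAMP pathway, and the regions were all called after Ex-4. The comparison with Ex-4 addressed whether they were also lower there. The FPKM of the regions was slightly lower in Ex-4 than in CON in both genotypes. The median Ex-4 minus CON difference in log2(FPKM + 0.5) was -0.15 in WT (-0.17 to -0.13) and -0.13 in Med14 S983A (-0.15 to -0.10), against -0.017 and -0.020 for peaks called in all 6 libraries. In WT, 808 regions (69.9%) were lower in Ex-4, against 55.0% of peaks called in all 6 libraries, and in Med14 S983A 774 (67.0%) were lower, against 55.2%. The intervals are over peaks and hold no replicate error, so they do not show that a second pair of libraries would differ in the same way. The peaks absent from 1 FSK list only gave medians between -0.15 and -0.078, so the lower Ex-4 level was shared with them.

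Few regions reached a 2-fold difference. In WT, 20 were at least 2-fold lower in Ex-4 (1.73%), against 0.097% of the background, and 1 was at least 2-fold higher, against 0.422% of the background. In Med14 S983A, 16 were at least 2-fold lower (1.38%), against 0.0991% of the background, and 0 were at least 2-fold higher, against 0.609% of the background. The background thus had more peaks 2-fold higher than lower with Ex-4, and the regions had the reverse. The background peaks were stronger, and these counts were not matched for level.

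The direction was seen at every level. Regions of up to 2 FPKM had median Ex-4 minus CON differences of -0.12 in WT and -0.10 in Med14 S983A, where peaks of that level called in all 6 libraries had 0.018 and 0.099. From 2 to 4 FPKM the medians were -0.18 and -0.13, against -0.023 and 0.025. From 4 to 10 FPKM they were -0.11 and -0.10, against -0.033 and -0.022. The 51 regions above 10 FPKM had -0.10 and -0.16, against -0.010 and -0.029. Between the genotypes, 563 regions (48.7%) were lower in Ex-4 in both and 137 (11.9%) were higher in both, against 37.8% and 27.5% of peaks called in all 6 libraries. At 1.5-fold, 19 regions (1.64%) were lower in both genotypes, against 0.195% of the background, and 1 was higher in both, against 1.08% of the background. The genotypes differed from CON in opposite directions at that fold in 9 regions (0.779%), against 0.0539% of the background. Opposite directions were thus also more frequent among the regions. The background peaks were stronger, and these shares over both genotypes were not matched for level.

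**Figure D4:**
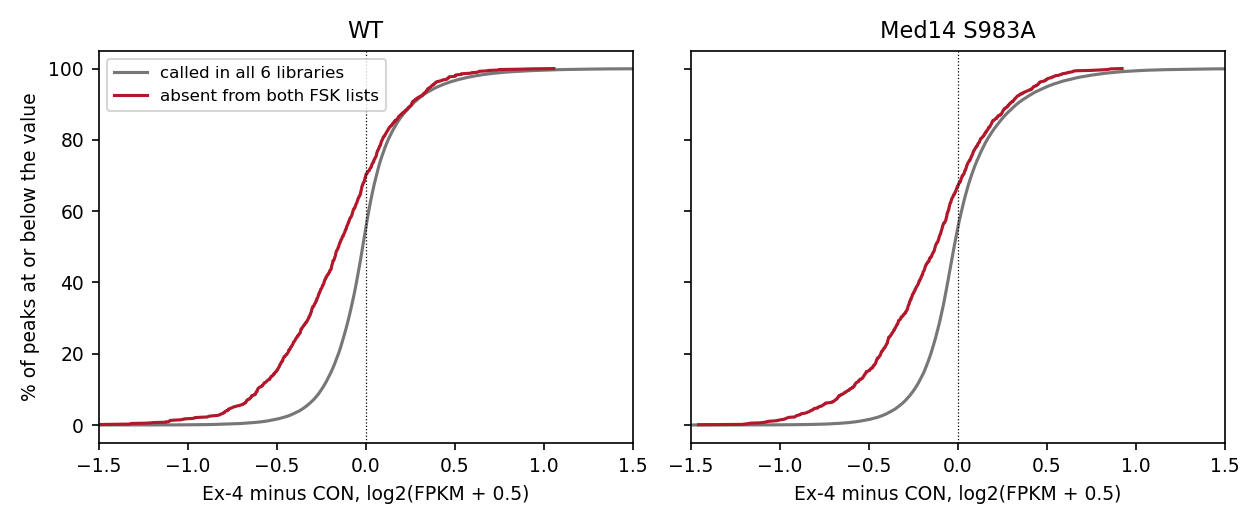
Cumulative percent of peaks against the Ex-4 minus CON difference in log2(FPKM + 0.5), in WT (left) and Med14 S983A (right), for the 1156 regions (red) and the 86576 peaks called in all 6 libraries (gray). The red curves lie to the left of the gray ones over most of the range, with medians of -0.15 and -0.13 against -0.017 and -0.020.

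The regions furthest below CON in Ex-4 in both genotypes had their FSK-called neighbors lower in FSK too. The region at chr1:129764866-129765463 measured 5.79 FPKM in WT CON (5.31 to 6.31, exact Poisson 95% interval) and 2.17 in WT Ex-4 (1.89 to 2.49), and 2.18 in mutant CON and 0.740 in mutant Ex-4. The differences were -1.24 and -1.11 on the log2(FPKM + 0.5) scale. A peak 298 bp after it, called in all 6 libraries, measured 12.3 FPKM in WT CON, 10.3 in WT Ex-4 and 5.06 in WT FSK, and 6.11, 4.12 and 2.72 FPKM in Med14 S983A. Both the region and this neighbor were thus lower in Ex-4 than in CON, and the neighbor was lower still in FSK, in both genotypes.

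The region at chr2:201823051-201823430 measured 3.10 FPKM in WT CON and 1.34 in WT Ex-4, and 4.75 in mutant CON and 2.19 in mutant Ex-4, for differences of -0.96 and -0.97. The region at chr8:27799133-27799794 measured 1.82 FPKM in WT CON and 0.429 in WT Ex-4, and 1.14 in mutant CON and 0.370 in mutant Ex-4. In these 3 regions the counting intervals of CON and Ex-4 did not overlap in either genotype. The regions were picked for this difference, so the separation follows largely from the choice. Their nearest FSK-called neighbors lay 298, 38996 and 3407 bp away, and all 3 measured less in FSK than in CON in both genotypes.

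The regions furthest above CON in Ex-4 were weak. The region at chr20:42198560-42198965 measured 1.22 FPKM in WT CON and 2.41 in WT Ex-4, and 1.60 in mutant CON and 2.501 in mutant Ex-4. The region at chr1:8114380-8114789 measured 0.920 FPKM in WT CON and 1.71 in WT Ex-4, and 0.564 in mutant CON and 1.10 in mutant Ex-4. The region at chr6:71171745-71172141 measured 0.900 and 1.61 FPKM in WT, and 1.07 and 1.73 FPKM in Med14 S983A. Their counting intervals did not overlap between CON and Ex-4 in either genotype, and the differences ran from 0.51 to 0.76. This too follows largely from the choice of these regions. The nearest FSK-called peaks of the first and the third were also lower in FSK in both genotypes. They measured 8.03 FPKM in WT CON against 4.58 in WT FSK and 5.50 against 3.19 FPKM in the mutant near the region on chromosome 20, and 8.78 against 5.17 FPKM and 7.05 against 2.51 FPKM near that on chromosome 6. Beside the region on chromosome 1, the neighbor measured 1.94 FPKM in WT CON and 3.44 in WT FSK, and 1.35 and 1.47 FPKM in the mutant. Lower FSK values beside a region were thus found with either direction of the Ex-4 difference.

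The comparison of genotypes asked whether the Med14 mutation went with another level of these regions before FSK. The regions had nearly the same level in both genotypes. The median Med14 S983A minus WT difference was -0.045 in CON (-0.080 to -0.011) and -0.038 in Ex-4 (-0.071 to 0.014). Peaks called in all 6 libraries had medians of 0.051 and 0.052. The sign for the regions depended on the scaling, since centring each library on the median level of the peaks called in all 6 turned both medians positive, to 0.074 and 0.068. Centring moves every peak of a comparison by the same amount. The medians of the regions thus stayed below those of the peaks called in all 6 libraries.

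Fewer regions than background peaks were 2-fold lower in Med14 S983A, whereas the count of higher ones depended on the scaling. The background was stronger, with a median mean level of 7.83 FPKM against 2.36 FPKM, and these counts were not matched for level. In CON, 39 regions (3.37%) stood 2-fold or more above WT in Med14 S983A, against 4.85% of the background, and 52 (4.50%) stood 2-fold or more below it, against 11.7% of the background. In Ex-4, 39 (3.37%) were 2-fold higher, against 4.95% of the background, and 46 (3.98%) were 2-fold lower, against 10.7% of the background. With each library centred, CON gave 62 higher (5.36%, against 6.27% of the background) and 30 lower (2.60%, against 9.83%), and with quantile normalization 76 higher (6.57%, against 6.44%) and 21 lower (1.82%, against 9.40%). The regions thus had fewer higher than lower differences as deposited and more higher than lower ones under both alternatives. In Ex-4 the split turned likewise. Centring gave 57 higher (4.93%, against 6.32% of the background) and 32 lower (2.77%, against 9.22%). Quantile normalization gave 60 higher (5.19%, against 6.44%) and 30 lower (2.60%, against 9.17%). The background share also moved up for higher and down for lower peaks under both alternatives, so this shift was not particular to the regions. In both treatments alike, as deposited, 13 regions (1.12%) were 2-fold higher and 22 (1.90%) 2-fold lower, against 3.75% and 9.39% of the background. The rule asked for a call in CON and Ex-4 and for no call in FSK in both genotypes, and peaks called in 1 FSK library stand outside it. Of the 4140 peaks absent from Med14 S983A FSK only, 40.8% were at least 2-fold lower in Med14 S983A in CON. The choice of regions thus bears on the count of lower ones, and its part in the difference from the background was not tested.

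The region at chr7:103219580-103219939 measured 1.69 FPKM in WT CON, 1.00 in WT Ex-4, and 8.65 and 7.31 in mutant CON and Ex-4. The region at chr13:28373818-28374343 measured 1.36, 1.08, 6.48 and 5.35 FPKM in the same order, and the region at chr15:105667577-105667778 measured 2.36, 2.88, 8.30 and 11.4 FPKM. In these 3, picked for this difference, both mutant values stood above both WT values, by 1.62 to 2.38 on the log2(FPKM + 0.5) scale. Their nearest FSK-called peaks were higher in FSK than in CON in both genotypes. In WT they measured 15.1 against 3.95 FPKM, 34.1 against 14.3 FPKM and 6.64 against 1.71 FPKM. In Med14 S983A they measured 29.2 against 25.1 FPKM, 40.3 against 18.4 FPKM and 31.5 against 15.4 FPKM.

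The opposite pattern was seen at chr7:121247047-121247393, with 7.46 FPKM in WT CON, 5.22 in WT Ex-4, and 1.61 and 1.00 in mutant CON and Ex-4. The region at chr2:188459832-188460438 measured 6.19, 4.41, 1.85 and 1.05 FPKM in the same order, and the region at chr7:132706047-132706486 measured 4.11, 4.17, 1.19 and 1.27 FPKM. Both WT values stood above both mutant values in these 3, picked for this difference, by 1.40 to 1.93 on the log2(FPKM + 0.5) scale. The nearest FSK-called peaks of these 3 differed in direction. The peak 335 bp before the region on chromosome 2 was lower in FSK in both genotypes, at 22.7 FPKM in WT CON against 3.71 in WT FSK and in the mutant 16.4 FPKM in CON against 7.39 in FSK. The neighbors of the other 2 were higher in FSK. Near chr7:121247047-121247393, 3134 bp away, WT measured 21.2 FPKM in CON and 26.4 in FSK and the mutant 0.841 and 2.83 FPKM. Near chr7:132706047-132706486, 744 bp away, WT measured 2.83 FPKM in CON and 18.5 in FSK, and the mutant was listed at 0 in CON and measured 2.75 FPKM in FSK.

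Peaks that kept a call in 1 FSK library give a value where the regions themselves have none. The 947 peaks absent from WT FSK only had a median FSK minus CON difference of -0.51 (-0.56 to -0.47) in Med14 S983A, where they were called. The 4140 peaks absent from Med14 S983A FSK only had -0.65 (-0.67 to -0.63) in WT. Peaks called in all 6 libraries had -0.12 in Med14 S983A and -0.13 in WT. Those peaks were stronger, with a median mean level of 8.50 FPKM against 2.53 and 3.04 FPKM, and no comparison at a matched level was made. The peaks that 1 genotype lacked after FSK were thus also lower after FSK in the other genotype, where they were still called. These peaks lie outside the 1156 regions, whose own FSK values are 0 through the choice.

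At the lower end, the weakest regions were at chr1:124076292-124076643, with 0.508 FPKM in WT CON, 0.269 in WT Ex-4, and 0.191 and 0.136 in mutant CON and Ex-4, and at chr18:85964566-85965146 and chr8:41122948-41123353, with values from 0.434 to 1.19 FPKM. The first rested on 7 to 27 reads per library. Just outside the rule, the background peak with the lowest FSK value above 0 was at chr7:80719266-80719593, with 0.038 FPKM in Med14 S983A FSK, where it was not called, and 0.974 FPKM in WT FSK, where it was. The next was at chr2:247229710-247230070, with 0.068 FPKM in Med14 S983A FSK and a called 1.14 FPKM in WT FSK. A peak at chr20:3829214-3830989 was called in both, with 0.170 FPKM in WT FSK and 5.90 FPKM in Med14 S983A FSK.

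The regions were spread over the genome. They lay on all 20 autosomes and the X chromosome, and 31 of them (2.68%) fell into 15 groups of regions within 10 kb of each other, 1 of which held 3 regions (chr11:22857218-22866266). Of peaks called in all 6 libraries, 1.47% had a region within 10 kb. The share of background peaks absent from both FSK lists was highest on chromosome 2, at 1.74% (127 of 7291 peaks, 1.47% to 2.07%), and lowest on chromosome 10, at 0.523% (31 of 5933 peaks, 0.368% to 0.741%). Among peaks of up to 4 FPKM the share was 5.39% on chromosome 2, 5.84% on chromosome 16 and 1.85% on chromosome 10, so the lower share on chromosome 10 was also found among weak peaks. The chromosomes were compared with no test, and that chromosome 10 had the lowest share was noticed after the values were seen.

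**Figure D5:**
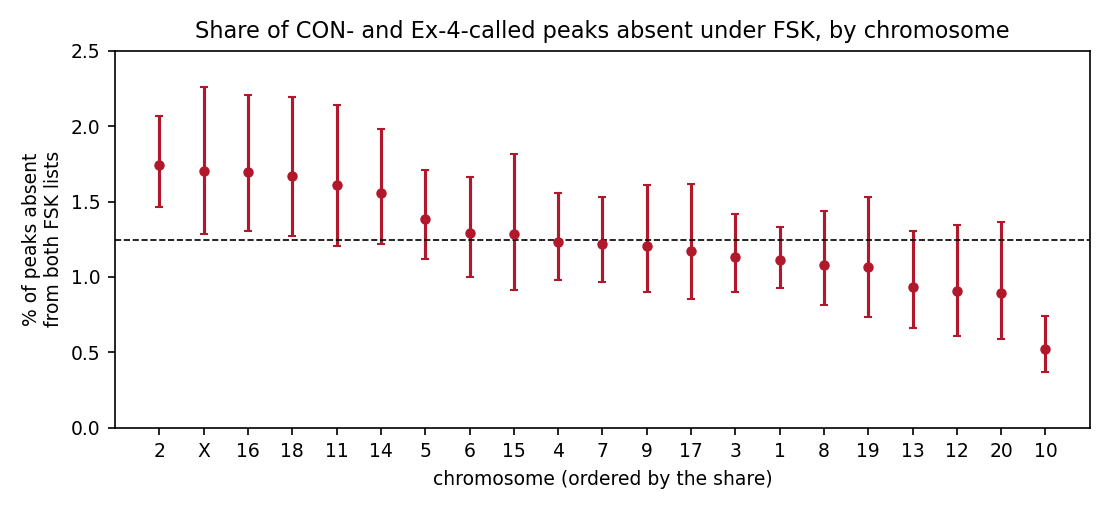
Percent of background peaks absent from both FSK lists on each chromosome, ordered by the share, with Wilson 95% intervals, which cover counting error only, and the share over all chromosomes, 1.25%, as a dashed line. Chromosome 10 is lowest at 0.523% and chromosome 2 highest at 1.74%.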

How the data were processed

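ATAC-seq was performed on nuclei of INS-1 cells of 2 genotypes in CON, Ex-4 and FSK, with 1 library per condition. Reads were processed by the authors with Trim Galore (trimming), bwa mem (alignment to rn6) and samtools (removal of mitochondrial, poorly mapped and duplicate reads), and macs2 called the peaks of each library. The deposited FPKM values were computed by the authors with HOMER over peaks merged from the 6 lists, with the lists that hold each peak. Whether these values use fragments shifted for the Tn5 cut site is not stated. FPKM divide by the merged length, so a library with a narrower peak reads lower.

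Mitochondrial peaks were dropped. Members were taken from the calls as deposited, and members and summaries were chosen with earlier results of these data known. The background was every peak called in CON and Ex-4 of both genotypes. Values were taken as log2(FPKM + 0.5) with no filter on low values. Differences of at least 2-fold were counted, with no p-value, since each condition has 1 library. Reads were recovered from the steps between low FPKM values multiplied by length, and all low values lay within 0.15 of a whole number. Intervals are Wilson for shares, order-statistic for medians and exact Poisson for single peaks, at 95%, and cover neither library preparation nor culture.

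Named regions are the 8 members with the highest mean FPKM over the 4 CON and Ex-4 libraries, the 3 furthest below and the 3 furthest above CON in Ex-4 in both genotypes, the 3 most higher and the 3 most lower in Med14 S983A in both treatments, the 3 weakest, and 3 background peaks just outside the rule with the lowest FSK values above 0. Coordinates are those of the deposited table, on rn6. Sequences, motifs and genes of the regions were not analysed here. The calculation was tested on simulated data. Python 3.11.15, numpy 2.4.6, pandas 2.3.3 and scipy 1.17.1 were used.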

Additional observations from a re-analysis of the deposited data

How the results depend on the processing

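Each condition has 1 library, so variation between cultures is unknown, and no library could be left out. The median region held 84 to 103 reads per library, with a counting error of 9.85% to 10.9%, so single regions near the median level cannot show differences of the size of the median Ex-4 difference. An absent call is the only FSK measurement, and how far each region missed the calling threshold was not analysed here. No paired analysis was possible because the groups share 1 replicate number only, each holds 1 library, and no result comes from a test. Of 97 recomputed values, 37 stayed within the interval of the value in the report, or within 1.5 times a count, 58 moved further and 2 reversed, that is, changed sign where the interval in the report did not include 0. A further 2 medians changed sign where that interval included 0.

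The share of the background absent from both FSK lists was 0.458% for a 4-library mean of at least 3 FPKM and 0.973% among peaks of at least 200 bp. It was 2.27% with the WT FSK list alone and 5.71% with the Med14 S983A FSK list alone. The median Ex-4 minus CON difference stayed negative in both genotypes under every alternative, and moved outside its interval to -0.18 in WT with a pseudocount of 0.1 and to -0.16 in Med14 S983A with quantile normalization. Without regions near an FSK-called peak, an alternative chosen after seeing the data, it was -0.17 in WT and -0.14 in Med14 S983A. The median Med14 S983A minus WT difference reversed in CON to 0.074 with each library centred and to 0.14 with quantile normalization. In Ex-4 it changed sign to 0.068 and 0.099 under the same alternatives, and it moved further below 0, to -0.094, for a mean of at least 3 FPKM. Centring moves all peaks of a comparison by the same amount. It therefore leaves the regions as far below the peaks called in all 6 libraries as before. The cause of the other changes was not tested.

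Counts of 2-fold differences depended on the pseudocount and the fold. The background was not counted at these pseudocounts and folds. The counts therefore show only how the setting moves them, and give no result about the regions against other peaks. With a pseudocount of 0.1, Ex-4 against CON gave 4 higher and 34 lower in WT and 6 and 51 in Med14 S983A, and Med14 S983A against WT gave 70 and 85 in CON and 69 and 72 in Ex-4. With a pseudocount of 1 the counts were 0 and 6, 0 and 1, 18 and 29, and 17 and 25 in the same order. At 1.5-fold they were 16 and 125, 18 and 124, 144 and 180, and 139 and 154, and at 4-fold 0 and 0, 0 and 0, 1 and 0, and 1 and 0. With quantile normalization, 26 (2.25%) were lower with Ex-4 in Med14 S983A, against 0.159% of the background. Med14 S983A against WT then gave 76 higher and 21 lower in CON and 60 and 30 in Ex-4. Centring gave 62 and 30 in CON. The background shares for these genotype counts are given with the comparison of genotypes above.

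The FSK minus CON median of the nearest peak called in all 6 libraries was -0.060 in WT and -0.12 in Med14 S983A within 2 kb, -0.20 in WT within 50 kb, and -0.097 in Med14 S983A with centring. An FSK-called peak lay within 200 bp of 7.87% and within 5 kb of 64.4% of the regions. The share of regions at or above the given percentile of FSK-called peaks was 90.8% in WT and 92.7% in Med14 S983A at the 5th, 58.1% and 54.8% at the 25th, and 94.2% and 92.9% for FPKM multiplied by length.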
